A study of Mus musculus with 9 samples.

Results

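The genes described here are the tumour suppressor p53 (Trp53) and 8 genes tied to it in stress responses: Mdm2, Ccng1, Trp53inp1, Phlda3, Zmat3, Sesn1, Sesn2 and Gdf15. They were taken by symbol from the deposited table, which lists 56748 genes; each of the 9 symbols matched 1 row, and all 9 were among the 15502 genes with enough counts to be tested. The libraries come from wild-type (WT) mouse chondrocytes, the cells of cartilage, released from knee joints by overnight collagenase and then cultured. There were 3 libraries from control cells, 3 from cells stimulated with interleukin-1β (IL-1β), an inflammatory cytokine of the joint, and 3 from cells given IL-1β with recombinant SFRP5, a secreted Wnt-binding protein. Doses, times, the age of the mice and whether libraries of a group came from separate animals or cultures are not given in the sources used here, so the p-values rest on library-to-library spread that may be no more than technical. SFRP5 was not given alone.

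p53 is a transcription factor that is held at a low level by MDM2, a ubiquitin ligase that marks it for degradation and whose own gene p53 switches on, so that the pair forms a feedback loop. When DNA is damaged or cells are stressed, p53 protein is stabilised and activates genes that halt division, repair DNA, alter metabolism or kill the cell. Since p53 is controlled mainly as a protein, the level of Trp53 mRNA need not follow its activity. Several of the genes here also answer to other factors: Sesn2 and Gdf15 are known targets of the ATF4 and CHOP stress pathway, and Sesn1 of FoxO factors. In cartilage, p53 has been studied for its part in chondrocyte death and senescence.

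The windows upstream of the members' transcription starts were searched for the p53 consensus decamer, the 10-base unit of which a full p53 site holds a pair. RefSeq sequences (GRCm38.p6) were matched for 7 of 9 genes, in 9 windows of 250 bases before a start, as Gdf15 and Sesn1 each have a pair of starts; Trp53inp1 and Zmat3 were not matched. The decamer was found in 4 of the 9 windows, against 7.13% of 32851 windows of all genes, and these 4 are printed because they are the only member windows that hold it. The decamer lay 186 bases before the start of Mdm2 (chr10:117710759-117711008, minus strand), 185 before that of Ccng1 (chr11:40755287-40755536, minus strand), 173 before the downstream start of Sesn1 (chr10:41887189-41887438, plus strand) and 75 before that of Trp53 (chr11:69580109-69580358, plus strand). Each distance is that of the decamer's first base, and capitals mark the decamer.
Mdm2: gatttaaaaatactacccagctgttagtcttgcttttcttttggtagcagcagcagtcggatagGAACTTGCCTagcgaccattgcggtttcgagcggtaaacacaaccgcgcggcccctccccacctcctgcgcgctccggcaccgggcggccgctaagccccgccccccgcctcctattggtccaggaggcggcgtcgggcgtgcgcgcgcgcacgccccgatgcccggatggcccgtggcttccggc
Ccng1: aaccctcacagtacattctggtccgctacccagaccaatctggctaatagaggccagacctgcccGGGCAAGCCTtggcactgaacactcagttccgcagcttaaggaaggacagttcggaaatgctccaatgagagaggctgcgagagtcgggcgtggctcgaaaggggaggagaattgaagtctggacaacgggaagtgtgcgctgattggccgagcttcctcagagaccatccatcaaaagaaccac
Sesn1: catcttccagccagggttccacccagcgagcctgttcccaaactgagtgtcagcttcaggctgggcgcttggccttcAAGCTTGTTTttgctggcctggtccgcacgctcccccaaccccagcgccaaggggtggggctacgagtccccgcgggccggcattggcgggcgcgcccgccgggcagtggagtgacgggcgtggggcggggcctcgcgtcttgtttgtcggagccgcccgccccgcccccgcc
Trp53: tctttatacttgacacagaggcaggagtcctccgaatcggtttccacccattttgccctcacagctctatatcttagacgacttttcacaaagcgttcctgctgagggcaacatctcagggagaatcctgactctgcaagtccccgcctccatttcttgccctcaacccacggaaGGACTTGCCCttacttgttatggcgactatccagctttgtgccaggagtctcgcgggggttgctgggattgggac
A pair of decamers at most 13 bases apart, the form of a full site, was in 0 of the 9 windows and in 0.0639% of all windows. Both decamers had to match every letter, so a full site with any mismatch was not counted. In the Ccng1 window, the 10 bases directly before the marked decamer match the consensus in all but a single letter. The kappaB consensus, the site bound by NF-κB, was in 0 of the 9 windows against 3.9% of all. TGATGNAA, a composite element bound by ATF4 with C/EBP partners, was in 0 against 3.45%, so that neither Gdf15 nor Sesn2 held these letters there. The last motif searched, the E-box CACGTG, lay 83 bases before the downstream start of Gdf15 and in no other member window, against 6.02% of all windows. Both strands were searched, and the motifs may overlap. A match is a description of the letters and not of binding; well-known p53 sites of several of these genes, such as those of Mdm2, lie inside the gene and outside these windows.

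Libraries held between 15795985 and 20688963 counts in all. Levels are given as CPM, counts per library size scaled by TMM factors, a step that corrects for a few genes taking up many reads; 3 counts in a library equalled 0.135 to 0.195 CPM. The TMM factors were 1.10 for every control library, 0.919 to 0.939 for IL-1β and 0.974 to 0.988 for SFRP5. The chondrocyte label held against its markers: all 12 listed cartilage genes were tested, and their summed level was 116208 to 118837 CPM in control, 26166 to 27458 CPM after IL-1β and 31593 to 33018 CPM with SFRP5. All 12 fell after IL-1β. With SFRP5 over IL-1β alone 5 rose, Col11a2 fell and 6 did not pass the test. Col2a1, from 15406 ± 539 to 20767 ± 805 CPM, made up most of that gain in the sum. In bulk RNA, fewer cells of a type and less RNA per cell cannot be told apart. Macrophage markers summed to 17.2 to 18.8 CPM in control, 55.5 to 59.4 with IL-1β and 37.7 to 43.3 with SFRP5; 6 of 12 had enough counts to be tested, none was at 0 over all libraries, and the pan-leukocyte gene Ptprc had 6, 12 and 6 counts over the 3 libraries of each group. Of the 6 tested, Cd14, Mrc1, Cd68 and Csf1r rose after IL-1β, while Laptm5 fell by 1.89 on the log2 scale and Lyz2 had a log2 change of 0.0040. Cd14 made up most of the rise in the sum after IL-1β, with 77, 1384 and 973 counts over the libraries of control, IL-1β and SFRP5. The defining C1qa and C1qb had 19 and 21 counts in control but 5 and 2 after IL-1β, too few to be tested. With SFRP5, Cd14, Mrc1 and Csf1r fell against IL-1β alone, and Cd68, Lyz2 and Laptm5 did not pass the test. Synovial fibroblast markers summed to 187.9 to 190.3 CPM in control, 862.6 to 919.3 after IL-1β and 1119 to 1152 with SFRP5, in the same group order as Phlda3, Zmat3 and Ccng1. Of the 6, 5 were tested and none was at 0. Pdpn and Prg4 rose after IL-1β, and Pdgfra and Thy1 fell. With SFRP5, Prg4 rose from 475.4 ± 34.5 to 844.5 ± 15.1 CPM and Pdgfra rose too. Pdpn fell there from 383.5 ± 7.86 to 230.8 ± 6.30 CPM, and Thy1 and Cd55 did not pass the test. Osteoblast markers, almost all Col1a1, summed to 5224 to 5397, 1840 to 1949 and 2287 to 2481 CPM; all 4 tested of 6 fell after IL-1β, and Sost was at 0. Skeletal muscle markers reached at most 6.86 CPM and endothelial markers at most 4.68 CPM in any library. The part of such cells in the results was not tested.

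Levels between genes are given in CPM per kb of the deposited gene length, which may differ from the length of the transcripts expressed. On this measure Ccng1 was the most abundant of the 9 genes in control cells at 88.4 ± 1.02 (SD, n = 3). Phlda3 followed at 46.2 ± 1.90, Sesn2 at 28.6 ± 0.456 and Mdm2 at 20.6 ± 0.578 CPM per kb. Gdf15 at 19.3 ± 0.709 and Trp53inp1 at 18.9 ± 0.790 CPM per kb overlapped between libraries, and Trp53 stood below them at 17.0 ± 0.766. Zmat3 at 5.96 and Sesn1 at 5.75 CPM per kb also overlapped and were lowest. With IL-1β the order changed in the middle: Mdm2 moved to the third place at 65.0 ± 4.26 CPM per kb and Gdf15 to the fourth at 30.6 ± 4.40, ahead of Sesn2 at 23.6 ± 1.88. Sesn1 remained last, at 1.90 ± 0.331 CPM per kb, and no neighbours in the order overlapped. With SFRP5 added, Trp53inp1 held the fourth place at 24.8 ± 0.784 CPM per kb, and Gdf15 at 21.2 ± 1.19 and Sesn2 at 18.9 ± 2.31 overlapped.

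**Figure D1:**
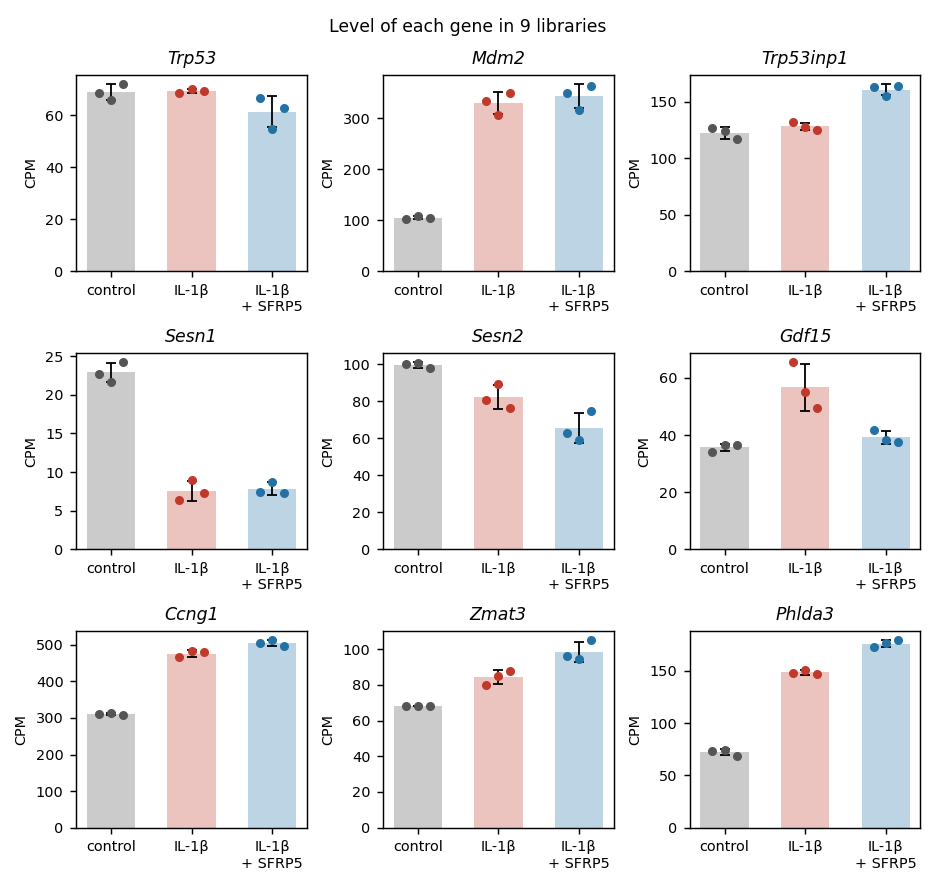
Level of each of the 9 genes in CPM (vertical axes, from 0) in control, IL-1β and IL-1β + SFRP5 libraries; points are the 3 libraries of a group, bars their mean and error bars the SD. Mdm2 stands near 105 CPM in control and at 307.4 CPM or more in every IL-1β library, with or without SFRP5, Sesn1 drops from above 21 to below 10 CPM, and Gdf15 is highest with IL-1β alone.

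The comparison of IL-1β with control asked how the cytokine moves this group. Of the 9 genes, 5 rose (Mdm2, Phlda3, Gdf15, Ccng1 and Zmat3), 2 fell (Sesn1 and Sesn2), and Trp53 and Trp53inp1 did not pass the test (edgeR's quasi-likelihood test, adjusted p under 0.05). The response was very broad, since 78.9% of all tested genes passed, 38.5% as higher and 40.4% as lower, so a call in this comparison is common. The groups did not overlap for 7 of the 9 genes, against 80.0% of all tested genes. The median log2 change of the 9 was 0.31 against −0.03 over all tested genes, and the median of its size was 0.62 against 0.75.

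The comparison of SFRP5 added to IL-1β with IL-1β alone asked what SFRP5 changes in stimulated cells. Trp53inp1, Phlda3 and Zmat3 rose, and Gdf15, Sesn2 and Trp53 fell, while Mdm2, Ccng1 and Sesn1 did not pass. Over all tested genes 31.3% passed, 15.6% as higher and 15.7% as lower. Libraries of the groups did not overlap for 7 of the 9 genes, against 40.8% of all tested genes. The median log2 change of the 9 was 0.06 against 0.01 over all tested genes, and the median of its size was 0.22 against 0.20. Each change was below 1.5-fold.

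Against control, the cells with IL-1β and SFRP5 had 5 of the 9 genes higher (Mdm2, Phlda3, Ccng1, Zmat3 and Trp53inp1) and 3 lower (Sesn1, Sesn2 and Trp53), and Gdf15 did not pass. In this comparison 76.3% of all tested genes passed, 37.3% as higher and 39.0% as lower. The libraries did not overlap for 8 of the 9 genes, all but Trp53, against 78.2% of all tested genes. Each pair of the 3 comparisons shares a group of libraries, so their values are set side by side and not correlated.

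**Figure D2:**
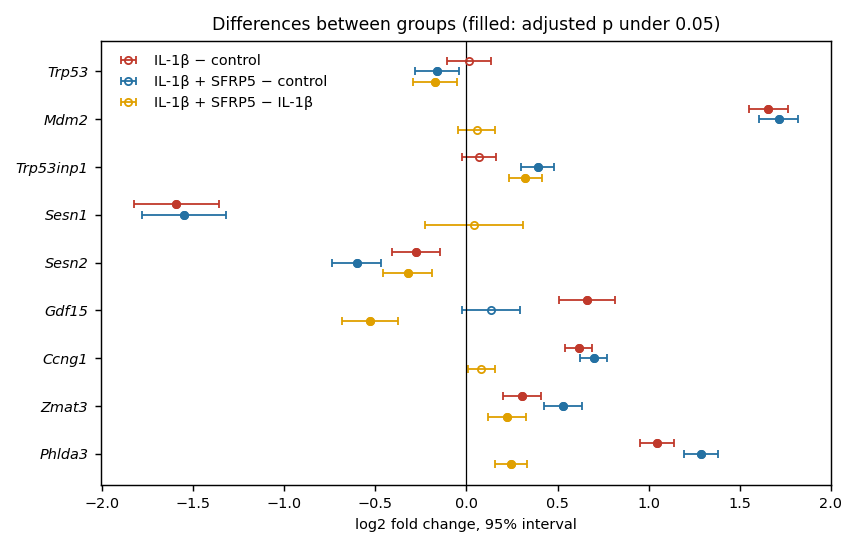
Log2 fold change of each gene (horizontal axis) with its 95% interval for the 3 comparisons, filled where the adjusted p is under 0.05. Mdm2 lies at 1.66 and 1.71 against control and at 0.057 between both IL-1β groups, Sesn1 at −1.59 and −1.55 against control, and Gdf15 at 0.66 for IL-1β and −0.53 for SFRP5.

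Trp53 (ENSMUSG00000059552) encodes p53 itself. Its level was 68.4, 65.8 and 72.0 CPM in the control libraries, 68.6, 70.1 and 69.2 CPM after IL-1β, and 66.6, 54.6 and 62.7 CPM with SFRP5. Control and IL-1β libraries overlapped, and all libraries with SFRP5 were below those with IL-1β alone. The log2 difference of IL-1β from control was 0.013 ± 0.058 (SE), with a 95% interval of −0.11 to 0.13 (edgeR, adjusted p = 0.841). Trp53 was called lower after IL-1β with upper-quartile factors (−0.13, adjusted p = 0.0355) and with total counts only (−0.23, adjusted p = 0.001), so its direction depends on the scaling; without control library 2 the value was −0.020 and not called. With SFRP5 the log2 change from IL-1β alone was −0.17 ± 0.06 (edgeR, adjusted p = 0.0276). That call was lost without IL-1β library 2 (adjusted p = 0.0809) or 3 (0.0533), without SFRP5 library 2 (0.204), in which Trp53 was lowest, and with total counts only (0.261). Against control the change with SFRP5 was −0.16 ± 0.06 (edgeR, adjusted p = 0.0161), which was lost without control library 3 (0.0828) or SFRP5 library 2 (0.313). A processed pseudogene, Trp53-ps, had 131 counts over all libraries beside 10984 of Trp53, and how reads of such copies were divided is uncertain.

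Mdm2 (ENSMUSG00000020184) encodes the ligase that degrades p53 and is itself a p53 target, and with Sesn1 it had the largest changes of the 9 genes after IL-1β. It measured 101.8, 107.6 and 105.2 CPM in control, 334.0, 307.4 and 350.3 CPM after IL-1β, and 350.7, 317.4 and 363.6 CPM with SFRP5. Every IL-1β library was above every control library, and both IL-1β groups overlapped. Mdm2 rose 3.15-fold, a log2 change of 1.66 ± 0.05 (edgeR, adjusted p = 5.28e-20), and 24.0% of tested genes changed by more. Adding SFRP5 gave a log2 difference of 0.057 ± 0.049, with an interval of −0.045 to 0.16 (edgeR, adjusted p = 0.419), which passed with total counts only (0.0446). The window upstream of Mdm2 holds 1 decamer, as printed above.

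Ccng1 (ENSMUSG00000020326), which encodes cyclin G1, a p53 target that feeds back on p53 through MDM2, was at 310.4, 313.8 and 306.7 CPM in control. It was at 465.9, 482.2 and 479.3 CPM after IL-1β and at 504.4, 511.9 and 495.2 CPM with SFRP5. The 3 groups did not overlap. Ccng1 rose 1.53-fold after IL-1β, by 0.62 ± 0.04 on the log2 scale (edgeR, adjusted p = 2.35e-14). The log2 difference with SFRP5 was 0.082 ± 0.035, interval 0.010 to 0.16, and it missed the threshold (edgeR, adjusted p = 0.0796) although it passed with upper-quartile factors (0.0476) and with total counts only (0.0006).

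Trp53inp1 (ENSMUSG00000028211) encodes a p53-induced nuclear protein with roles in p53-driven death and in autophagy. Its level was 126.5, 124.5 and 116.8 CPM in control, 131.8, 128.1 and 125.5 CPM after IL-1β, and 163.0, 155.0 and 164.4 CPM with SFRP5. Control and IL-1β libraries overlapped, and all 3 libraries with SFRP5 were above the other 6. The log2 difference of IL-1β from control was 0.067 ± 0.045, interval −0.026 to 0.16 (edgeR, adjusted p = 0.177); it passed without IL-1β library 3 (0.11, adjusted p = 0.0463) and its value was −0.081 with upper-quartile factors (adjusted p = 0.107). With total counts only it was called lower (−0.18, adjusted p = 0.001), so its direction too depends on the scaling. With SFRP5 it rose 1.25-fold over IL-1β alone, a log2 change of 0.32 ± 0.04 (edgeR, adjusted p = 2.89e-06).

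Phlda3 (ENSMUSG00000041801), a p53 target whose protein restrains the kinase AKT at the membrane, was at 73.0, 74.2 and 68.6 CPM in control. It reached 147.5, 151.1 and 147.0 CPM after IL-1β and 172.5, 176.0 and 179.0 CPM with SFRP5, so that the 3 groups formed steps with no overlap. The log2 change after IL-1β was 1.04 ± 0.05, or 2.06-fold (edgeR, adjusted p = 4.18e-17). SFRP5 added 0.24 ± 0.04 on the log2 scale (edgeR, adjusted p = 7.71e-05).

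Zmat3 (ENSMUSG00000027663), a p53 target that encodes an RNA-binding zinc finger protein acting on splicing, showed the same order of groups with smaller steps. It was at 68.3, 67.9 and 68.2 CPM in control, 80.1, 84.6 and 88.0 CPM after IL-1β, and 96.0, 94.4 and 104.9 CPM with SFRP5. No libraries of different groups overlapped. The log2 change after IL-1β was 0.31 ± 0.05 (edgeR, adjusted p = 6.02e-06), which with total counts only became 0.061 and lost its call (adjusted p = 0.288). The change with SFRP5 was 0.22 ± 0.05 (edgeR, adjusted p = 0.00105).

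The sestrins, stress-induced inhibitors of the growth kinase complex mTORC1, both fell after IL-1β. Sesn1 (ENSMUSG00000038332) was at 22.7, 21.7 and 24.2 CPM in control, 6.44, 9.02 and 7.29 CPM after IL-1β, and 7.45, 8.78 and 7.26 CPM with SFRP5. All control libraries were above all others, and both IL-1β groups overlapped. Sesn1 was 3.01-fold lower after IL-1β, a log2 change of −1.59 ± 0.11 (edgeR, adjusted p = 1.51e-12). The log2 difference with SFRP5 was 0.040 ± 0.130, interval −0.23 to 0.31 (edgeR, adjusted p = 0.854), and its sign turned without IL-1β library 1 (−0.062) or SFRP5 library 2 (−0.043).

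Sesn2 (ENSMUSG00000028893) was at 100.3, 100.5 and 97.7 CPM in control, 80.4, 89.3 and 76.6 CPM after IL-1β, and 62.9, 59.2 and 74.6 CPM with SFRP5. The groups did not overlap, and the order ran down from control to IL-1β to SFRP5. The log2 change was −0.28 ± 0.06 for IL-1β (edgeR, adjusted p = 0.00034) and −0.32 ± 0.07 for SFRP5 over IL-1β (edgeR, adjusted p = 0.00044); the first was −0.52 with total counts only. A long noncoding gene on the same strand, Gm12981, overlaps Sesn2 and had 115 counts beside 13727. The third sestrin, Sesn3, is on a list below and fell too, from 344.1 ± 4.37 to 77.5 ± 1.22 CPM, and it rose with SFRP5 to 114.7 ± 4.88 CPM (edgeR, adjusted p = 1.78e-10), whereas Sesn2 fell there.

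Gdf15 (ENSMUSG00000038508), which encodes a secreted stress cytokine of the TGF-β superfamily, was the gene that rose with IL-1β and fell when SFRP5 was added. It was at 34.2, 36.5 and 36.6 CPM in control, 65.6, 55.0 and 49.5 CPM after IL-1β, and 41.7, 38.2 and 37.6 CPM with SFRP5. The IL-1β libraries were above all others, and the libraries with SFRP5 were all above control by a small margin. The log2 change was 0.66 ± 0.08 for IL-1β (edgeR, adjusted p = 1.37e-08), or 1.58-fold, and −0.53 ± 0.08 for SFRP5 over IL-1β (edgeR, adjusted p = 4.63e-06). The latter was −0.41 without IL-1β library 1, the highest, and remained called. Between SFRP5 and control the log2 difference was 0.13 ± 0.08, interval −0.026 to 0.29, and missed the threshold (edgeR, adjusted p = 0.119). It passed with no low-count filter (0.0403), with only the 6 libraries compared (0.027) and without IL-1β library 1 (0.0236) or 3 (0.0305), and its sign turned with total counts only (−0.030). To 3 decimals this difference was above 0 in 16 of 18 fits, the main fit included. The summed macrophage markers given above were likewise highest with IL-1β alone and lower with SFRP5. Most of their rise was Cd14: of the 6 tested, 4 rose after IL-1β, Laptm5 fell and Lyz2 did not pass the test. The part of such cells in the Gdf15 result was not tested. Of its receptor pair, Gfral had too few counts to be tested and Ret rose from 1.58 ± 0.120 in control to 5.07 ± 0.733 CPM after IL-1β (edgeR, adjusted p = 2.88e-08).

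Ratios of counts within a library do not depend on how libraries are scaled, and the pairs here were chosen after their levels were seen. They also depend on transcript length, so only their differences between groups can be read. There were 1.49, 1.64 and 1.46 Mdm2 counts per count of Trp53 in control, 4.87, 4.38 and 5.06 with IL-1β, and 5.27, 5.81 and 5.80 with SFRP5. All 3 groups stood apart in this ratio. Gdf15 counts per count of Sesn2 were 0.360 ± 0.017 (SD, n = 3) in control, 0.693 ± 0.108 with IL-1β and 0.604 ± 0.087 with SFRP5, where both IL-1β groups overlapped. Sesn2 counts per count of Sesn1 were 4.36 ± 0.306 in control, 11.0 ± 1.35 with IL-1β and 8.49 ± 1.77 with SFRP5, again with an overlap of both IL-1β groups.

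**Figure D3:**
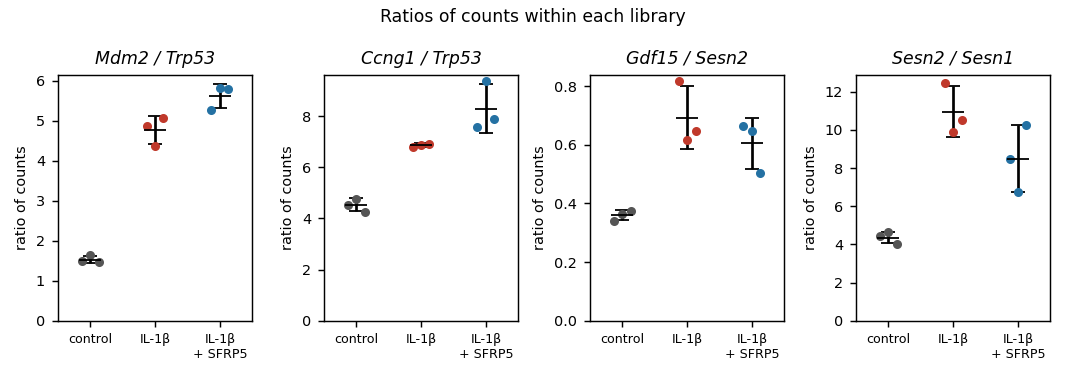
Ratio of the counts of a gene pair within each library (vertical axes, from 0) for 4 pairs; points are libraries, and the dash and error bar are the mean and SD of 3. Mdm2 per Trp53 rises from about 1.5 in control to 4.8 with IL-1β and 5.6 with SFRP5.

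Other genes of the pathway came from lists of known regulators and targets. Their counts are read against all tested genes, of which 78.9% were called after IL-1β (38.5% higher, 40.4% lower) and 31.3% with SFRP5 over IL-1β (15.6% higher, 15.7% lower). Of 19 tested regulators and partners of p53, 9 rose and 7 fell after IL-1β, with a median log2 change of 0.02, so the share called was near that of all genes. Trp63, a p53 relative of epithelia, fell by 5.16 on the log2 scale to 0.354 ± 0.150 CPM, and Trp53inp2, the relative of Trp53inp1, fell by 1.25 ± 0.06 on the log2 scale. Usp7, a deubiquitinase that stabilises MDM2 and p53, rose by 0.86 ± 0.05, and Rchy1, another ubiquitin ligase for p53, by 0.85 ± 0.05. With SFRP5, 6 of the 19 rose and 2 fell against IL-1β alone. Hipk2, a kinase that activates p53, rose from 67.9 ± 1.03 to 104.9 ± 7.60 CPM, Trp63 rose to 1.78 ± 0.462 CPM, and Ep300, an acetyltransferase and p53 coactivator, rose by 0.22 ± 0.05.

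Of 10 tested genes listed as p53 targets in growth arrest, 6 rose and 2 fell after IL-1β, with a median log2 change of 0.91. The list also holds genes that do not themselves halt division, such as Ckap2. The 8 called are again near the background of 78.9%. Plk2, a stress-induced kinase, rose from 50.5 ± 0.755 to 1179 ± 13.2 CPM. Cdkn1a, which encodes the cell cycle inhibitor p21, rose to 1445 ± 57.4 CPM after IL-1β and stood at 1302 ± 29.5 CPM with SFRP5, a fall of log2 −0.15 (edgeR, adjusted p = 0.00164). The 2 that fell were Ckap2, a mitotic spindle protein, from 36.0 ± 1.29 to 2.93 ± 0.0727 CPM, and Cdc42se1, by 2.34 ± 0.07 on the log2 scale. With SFRP5, 4 of these 10 rose and 5 fell. Ckap2 and Cdc42se1 rose by 1.71 ± 0.12 and 0.55 ± 0.09, and Plk2 fell by 0.40 ± 0.03. Gtse1 and Gadd45a were the others that rose. The 5 that fell, Plk2, Btg2, Plk3, Sfn and Cdkn1a, had all risen after IL-1β, as had Gadd45a.

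Of 14 tested targets that act in cell death, 9 rose and 2 fell after IL-1β, with a median log2 change of 0.54; the number called, 11 of 14, is at the background share. Tnfrsf10b, the receptor for the death ligand TRAIL, rose from 60.1 ± 2.18 to 117.8 ± 2.02 CPM, Bax, a pore-forming death protein, from 51.7 ± 1.32 to 89.3 ± 4.06 CPM, Eda2r, a receptor of the TNF receptor family, from 20.6 ± 1.69 to 40.3 ± 2.95 CPM and Bbc3, which encodes PUMA, from 17.5 ± 2.35 to 38.1 ± 3.53 CPM. With SFRP5, 5 of the 14 rose over IL-1β alone and 0 fell; Fas rose by 0.33 ± 0.09, Pidd1 by 0.61 ± 0.17 and Bbc3 by 0.26 ± 0.08 on the log2 scale. Genes listed as targets in DNA repair and metabolism were split, with 5 of 14 up and 7 down and a median of −0.08. Gls2, a mitochondrial glutaminase, rose from 0.374 ± 0.128 to 95.6 ± 4.27 CPM, the repair nuclease gene Ercc5 rose by 1.06 ± 0.05 and the autophagy gene Dram1 by 1.76 ± 0.11. Sesn3, which is counted again on the FoxO list below, fell. With SFRP5, 7 of these 14 rose and 1 fell, with Dram1 up by 0.56 ± 0.09 and Ddit4, an mTORC1 inhibitor, down by 0.33 ± 0.06.

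The lists for other regulators of the sestrins and Gdf15 went both ways. Of 12 ATF4 and CHOP stress genes, Sesn2 and Gdf15 among them, 6 rose and 4 fell after IL-1β (median 0.37), and 2 rose and 6 fell with SFRP5 (median −0.12). Atf4 itself rose from 506.0 ± 6.41 to 1071 ± 35.6 CPM and fell to 892.8 ± 37.0 CPM with SFRP5 (edgeR, adjusted p = 3.31e-06), and Atf3 rose from 29.1 ± 1.85 to 414.6 ± 29.6 CPM and fell to 305.7 ± 22.1 CPM. Vldlr, a lipoprotein receptor, rose from 212.8 ± 2.71 to 601.0 ± 11.4 CPM, and Ppp1r15a, a phosphatase subunit that reverses the block of translation under stress, rose from 169.1 ± 5.13 to 488.6 ± 43.5 CPM. Chac1, a glutathione-degrading enzyme, fell in both comparisons as Sesn2 did, from 112.3 ± 3.50 to 65.6 ± 1.69 and 46.8 ± 4.39 CPM. Ddit3, which encodes CHOP, fell after IL-1β from 180.2 ± 5.92 to 149.5 ± 9.53 CPM. With SFRP5 Ddit3 was higher than with IL-1β alone by 0.30 ± 0.05, at 184.4 ± 4.04 CPM. Trib3 did not pass the test after IL-1β and was higher with SFRP5 by 0.29 ± 0.04. Of 12 FoxO factors and targets, Sesn1 and Sesn3 among them, 3 rose and 7 fell after IL-1β (median −0.49). Txnip, a thioredoxin-binding protein, fell from 45.0 ± 2.92 to 1.78 ± 0.433 CPM and Fbxo32, a ubiquitin ligase of muscle wasting, rose from 4.46 ± 0.166 to 44.7 ± 0.998 CPM. Ccng2, the cyclin G relative of Ccng1, rose from 19.1 ± 1.32 to 61.8 ± 1.78 CPM. With SFRP5, 6 of the 12 rose and 2 fell: Fbxo32 fell to 21.9 ± 0.798 CPM, and the transcriptional repressor gene Bcl6 rose by 0.89 ± 0.06 on the log2 scale. Of 19 genes listed for nutrient sensing by mTORC1, the pathway the sestrins act on, 7 rose and 6 fell after IL-1β (median −0.01), and 4 rose and 2 fell with SFRP5. The list is wider than amino acid sensing and takes in Sqstm1 and Keap1. Sqstm1, an autophagy adaptor, rose from 347.9 ± 7.31 to 5263 ± 378 CPM and fell to 2382 ± 181 CPM with SFRP5, and Rragd, a Rag GTPase, rose from 1.93 ± 0.304 to 22.7 ± 1.57 CPM. Among the listed subunits of GATOR2, the complex that sestrins bind, Seh1l rose from 76.3 ± 3.13 to 233.3 ± 3.24 CPM after IL-1β. Wdr59 and Wdr24 rose by 0.74 ± 0.07 and 0.54 ± 0.08 on the log2 scale. Sec13 fell from 140.1 ± 5.55 to 63.5 ± 3.68 CPM, and Mios did not pass the test. With SFRP5, Lamtor1 rose by 0.19 ± 0.05 and Mtor by 0.16 ± 0.06 on the log2 scale.

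**Figure D4:**
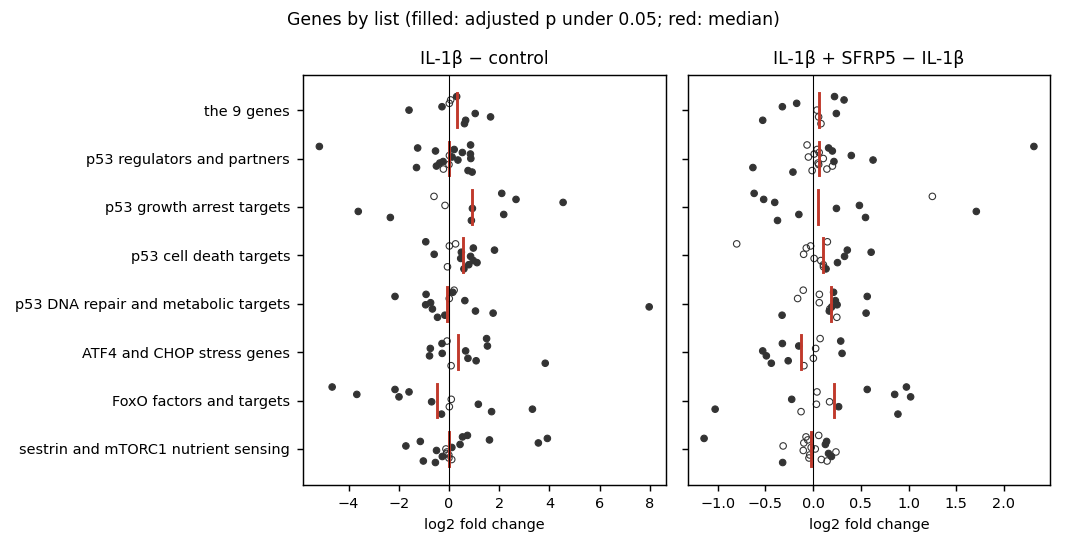
Log2 fold change (horizontal axes, with different ranges) of the 9 genes and of every tested gene of 7 lists, for IL-1β against control and for SFRP5 added to IL-1β; filled points have an adjusted p under 0.05 and red lines are medians. The growth arrest list has the highest median after IL-1β, 0.91, and Gls2 is the point near 8.

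The genes whose pattern over the 9 libraries came closest to each member were found by the root-mean-square distance between log2 levels, each taken relative to its control mean. Phlda3 was followed most closely by Tjp1, at a distance of 0.027, with 126.8, 263.5 and 302.3 CPM in control, IL-1β and SFRP5, and by Hif1a at 0.047. Mdm2 was closest to Zbtb43 (0.035) and Dubr (0.069), and Ccng1 to Pik3c3 (0.031). Zmat3 was closest to Hps5 (0.044) and Arhgap23 (0.051), Trp53 to Cep290 (0.048) and Capn2 (0.054), and Trp53inp1 to Cic and Lrp12 (both 0.050). Sesn2 came closest to Irf2bpl (0.059) and Mknk2 (0.084). The distances were larger for Gdf15, with Vcl (0.095) and Atrnl1 (0.106), and for Sesn1, with Rnft2 (0.114) and Dtymk (0.116). These are descriptions over 9 libraries that share the same 3 conditions.

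The scaling of the libraries bears on every small change here. Relative to TMM, the median log2 change of all genes after IL-1β moved by −0.15 with upper-quartile factors and by −0.24 with total counts only, and that between SFRP5 and IL-1β by 0.013 and 0.081. The share of higher genes among those called fell from 48.8% to 37.7% after IL-1β with total counts only, and rose from 49.8% to 69.7% for SFRP5 over IL-1β. After IL-1β, Mdm2, Phlda3, Gdf15 and Ccng1 rose and both sestrins fell under all 4 scalings tried.

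**Figure D5:**
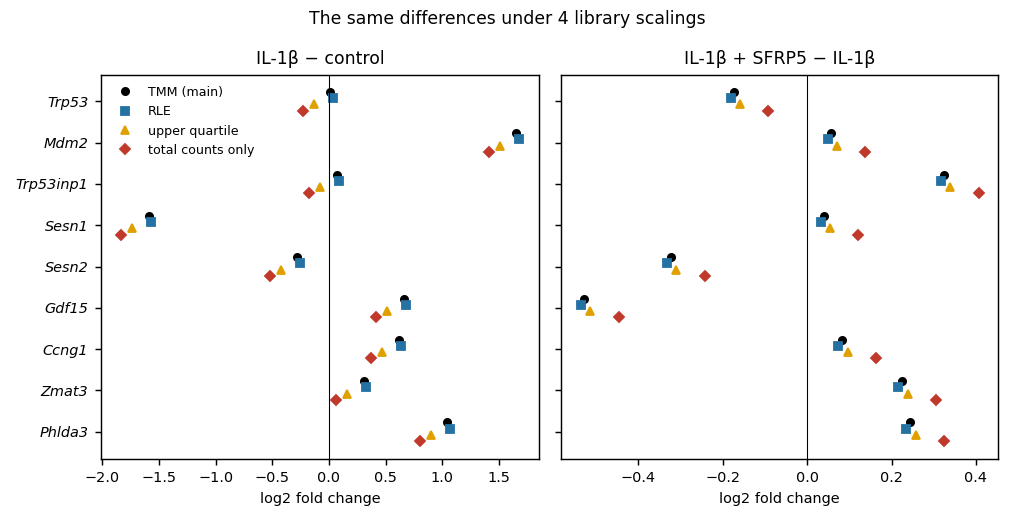
Log2 fold change of each gene (horizontal axes, with different ranges) under TMM, RLE, upper-quartile and total-count scaling, for IL-1β against control and for SFRP5 added to IL-1β. The total-count values lie to the left of TMM for IL-1β and to the right for SFRP5, and for IL-1β those of Trp53 and Trp53inp1 cross 0.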

How the data were processed

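Per the labels' protocols, RNA purified by TRIzol and column went into NEBNext Ultra II Directional libraries, and the paired-end reads were trimmed (fastp), mapped to mm10 (STAR) and quantified (RSEM). Versions, annotation release, strand setting and rounding are not given in the sources used here. Then the authors deposited 1 table of whole-number gene counts, not scaled between libraries, with a gene length. Its gene starts and ends matched those of GENCODE M21 (GRCm38, the mm10 assembly) for 2.83% of 52073 shared gene IDs, so the build of the deposited positions is uncertain; none is printed, and they were used only to find overlapping genes. Column names gave the sample by their letter and last digit. All genes were tested together with edgeR 4.0.16 (R 4.3.3): filterByExpr by group, TMM factors, glmQLFit on 9 libraries with 1 mean per group, and Benjamini-Hochberg adjustment over 15502 genes, with calls at an adjusted p under 0.05. SEs come from the change and its F statistic. Log2 CPM for pattern distances used a prior count of 2. The fit was tested on simulated counts in which few genes changed, equally up and down. That simulation does not show how the fit behaves under a response as broad as the one to IL-1β. The members and lists were chosen with earlier results of these data known. The text names all 9 members, up to 4 genes per list with the smallest adjusted p for IL-1β and up to 3 for SFRP5, and the 2 nearest patterns per member, except a gene that is not reported here; other list genes were named after their values were seen. Alternatives were RLE, upper-quartile and no factors (the last added after seeing the data), DESeq2 1.42.0, no filter, robust dispersions, a replicate block, only the 6 libraries compared, and each library left out. Pairs of libraries within a group differed by more than sampling noise (chi-square per gene 2.18 to 4.54, where noise alone gives about 1).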

Additional observations from a re-analysis of the deposited data

How the results depend on the processing

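Among the alternatives planned, every count of called members and of called genes stayed within 1.5 times its value. With total counts only, chosen after seeing the data, 4 members fell after IL-1β instead of 2, and 5 rose with SFRP5 over IL-1β instead of 3, while 1567 genes fell in that comparison instead of 2438; the cause was not tested. Signs turned after IL-1β for Trp53 (−0.134 with upper-quartile factors, −0.232 with total counts only) and Trp53inp1 (−0.081 and −0.178), and for Gdf15 between SFRP5 and control (−0.030 with total counts only). With 1 library left out, the log2 change of Trp53 after IL-1β ranged from −0.020 to 0.046 and that of Sesn1 with SFRP5 from −0.062 to 0.182; the members called ranged from 7 to 8 after IL-1β, 5 to 6 for SFRP5 over IL-1β and 7 to 9 for SFRP5 over control. Deviations of same-numbered libraries from their group means correlated with r of −0.036 to 0.040. These values show no sign of pairing by replicate number, but cannot show whether such libraries shared an animal or culture. With the replicate block 12151, 4780 and 11761 genes were called against 12227, 4858 and 11828, and no call of a member changed. At these depths the lowest member, Sesn1, had 106 to 151 counts per library with IL-1β, which limits its precision.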
